A study of Mus musculus with 12 samples.

Results

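The data describe what binge ethanol changed in the RNA of femoral shafts from male mice labelled as catalase knockout. The comparison set the 3 libraries of catalase knockout mice (Cat -/-) given ethanol (libraries 4, 5 and 6) against the 3 libraries of knockout mice given phosphate-buffered saline (PBS; libraries 1, 2 and 3), 6 of the 12 libraries of the study. Of the 49315 genes in the count table, the 18161 that passed a low-count filter were tested. Mice aged 12 weeks had 1 gavage on each of 4 days, of 3, 3, 4 and finally 4.5 g of ethanol per kg of body weight as a 31.5% (v/v) solution or of an equal volume of PBS, and tissue was taken 6 hours after the fourth dose. The femurs were cleared of marrow by centrifugation before RNA extraction. Each library pooled RNA from 2 mice, so the spread between libraries is a spread between pools. The other 6 libraries came from wild-type mice (Cat +/+), 3 given ethanol and 3 given PBS in the same way, and they are used here for the estimate of the spread and for the test of whether the ethanol effect differed between genotypes. The sources used here do not say how the Cat allele was disrupted, whether the deletion was confined to a tissue, or whether the mice were littermates.

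Catalase sits in peroxisomes, where it splits hydrogen peroxide into water and oxygen, and with peroxide present it can also oxidise ethanol to acetaldehyde, beside alcohol dehydrogenase and the cytochrome Cyp2e1. The shaft of the femur is cortical bone. It holds osteocytes buried in the matrix, osteoblasts that lay down type I collagen on its surfaces, osteoclasts that resorb it, and blood and vascular cells in its canals. A stress that disturbs amino acid supply, protein folding or mitochondria is known to act through phosphorylation of the initiation factor eIF2 and the transcription factor ATF4, which raises amino acid synthesis, import and tRNA charging. Adrenal glucocorticoid acts through a nuclear receptor that binds DNA in the promoters and enhancers of its targets, and in bone it is known to reduce osteoblast activity.

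Library totals in the knockout ran from 23133013 to 28789308 counts. The unit for levels is CPM, a gene's counts scaled to the library size with TMM factors. The knockout could be checked at Cat itself. Cat was at 70.1, 65.9 and 66.5 CPM in the PBS libraries and at 69.05, 74.2 and 71.6 CPM in the ethanol libraries of the knockout, against 128, 152 and 175 CPM and 172, 165 and 144 CPM in the wild type. All 6 knockout libraries lay below all 6 wild-type libraries, and reads over Cat were still present in the knockout. The ethanol change of Cat in the knockout had a log2 fold change of 0.08 (SE 0.10, adjusted p = 0.771). Markers of bone cells were present in all 6 knockout libraries: Col1a1 averaged 17754 ± 1451 CPM and the osteocyte gene Sost 1032 ± 67.98 CPM in the PBS libraries (mean ± SD, n = 3). RNA of other tissues was present too. The skeletal muscle list held 0.3503% to 1.329% of counts in the PBS libraries and 0.7167% to 0.9099% in the ethanol libraries, and the late neutrophil list held 2.477% to 2.618% and 2.573% to 2.871%. In the wild type the muscle list ran from 0.1487% to 3.977%, and this spread entered the estimate of error that the knockout comparison shares. Correlations of log2 CPM between libraries of a group were 0.989 to 0.993 in the knockout, and no pair was alike to within sampling noise. On the first principal component of the 6 libraries, which held 39.57% of the variance, the PBS libraries lay between -24.75 and -18.63 and the ethanol libraries at 8.51, 18.67 and 37.61, library 6 farthest out.

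Ethanol changed 339 of the 18161 genes (1.87%) at a Benjamini-Hochberg adjusted p under 0.05 by edgeR's quasi-likelihood test, the rule meant by "rose", "fell" and "called" throughout. Of these, 175 (0.964%) rose and 164 (0.903%) fell. A change of at least 2-fold was seen in 43 of the genes that rose and 53 of those that fell. The median log2 fold change was 0.61 among the genes that rose and -0.75 among those that fell, while over all tested genes it was 1e-04. In all 339 genes the 3 ethanol libraries and the 3 PBS libraries did not overlap, which 32.3% of all tested genes also showed. The ethanol libraries were the higher ones, with no overlap, in 16.3% of all tested genes and the lower ones in 16.0%. The number of calls depended on the libraries in the fit. When the 6 knockout libraries were fitted alone, 1677 of 17761 genes were called (9.44%; 863 rose, 4.86%, and 814 fell, 4.58%), 319 of the 339 among them. Leaving out any knockout library, so that an arm held 2, left 52 (without PBS library 2) to 217 calls (without ethanol library 5), and leaving out wild-type library 12 gave 568. Of the 81 called genes that the naming rule took, 19 were called without each of the 6 knockout libraries in turn. A further 27 were called in only 1 of these 6 refits, and 14 in none. The 14 were Hmgcs1, Pparg, Acot1, Xcl1, Nr4a2, Fkbp5, Ddit3, Plin2, Pth1r, Gzma, Fam107a, Pfkl, Prdx1 and Dkc1.

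**Figure D1:**
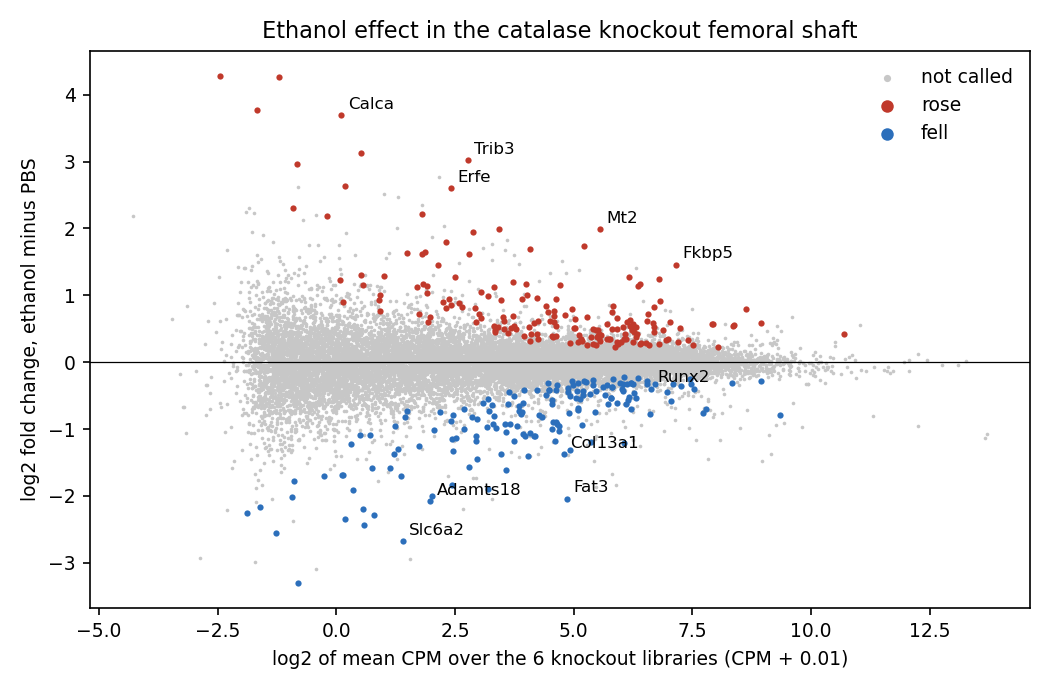
Each point is 1 of the 18161 tested genes, with the log2 of its mean CPM over the 6 knockout libraries on the horizontal axis and its log2 fold change (ethanol minus PBS) on the vertical axis. The 175 genes that rose are red, the 164 that fell are blue and the others grey; Trib3 and Calca lie high among the rises, and Slc6a2 and Fat3 low among the falls.

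Genes of bone formation were lower after ethanol. All 16 tested members of the osteoblast list were lower, with a median log2 fold change of -0.95, and 13 of them had no overlap between groups (16.0% of all tested genes were lower with no overlap). Of the 16, 3 passed the test and fell, where 0.903% of all tested genes fell. They were Runx2, the master transcription factor of the osteoblast lineage, Phospho1, a phosphatase that starts matrix mineralization, and Pth1r, the receptor of parathyroid hormone. Runx2 (chr17:44495987-44814797) was at 109, 118 and 109.6 CPM in the PBS libraries and 83.3, 91.3 and 81.9 CPM in the ethanol libraries, a log2 fold change of -0.39 (SE 0.08, adjusted p = 0.0270). Phospho1 went from 18.2, 19.03 and 19.2 CPM to 11.2, 11.3 and 10.4 CPM, with a log2 fold change of -0.78 (SE 0.14, adjusted p = 0.0200), and its 3 ethanol values lay within 1 CPM of each other. Pth1r went from 79.02, 92.4 and 101 CPM to 61.5, 63.1 and 43.2 CPM, with a log2 fold change of -0.70 (SE 0.15, adjusted p = 0.0430). All 3 share exon sequence with another gene (Runx2os1, Abi3 and Zfp652, and Myl3, in this order), so their counts are uncertain to that extent.

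The members of the osteoblast list with the largest differences did not pass the test, and their ethanol libraries were spread out. Smpd3, a sphingomyelinase needed for mineralization, was at 82.3, 93.97 and 103 CPM against 26.5, 39.5 and 12.7 CPM (log2 fold change -1.83, SE 0.46, adjusted p = 0.0830). Col1a1, which encodes a chain of type I collagen, was at 16415, 17553 and 19295 CPM against 8142, 11271 and 4803 CPM, with a log2 fold change of -1.14 (SE 0.32, adjusted p = 0.108). Alpl, the alkaline phosphatase of mineralizing cells, was at 206, 231 and 254 CPM against 116, 158 and 74.8 CPM (log2 fold change -0.99, SE 0.22, adjusted p = 0.0541). In each of these genes every ethanol library was below every PBS library, library 6 was the lowest and library 5 the highest of the ethanol libraries. Bglap and Bglap2, the osteocalcin genes, had log2 fold changes of -1.37 and -1.45 without passing the test, and reads of these near-identical copies may have been split or shared between them. Spp1, osteopontin, had a log2 fold change of -0.13 (SE 0.12, adjusted p = 0.655).

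As a share of all counts the osteoblast list, which type I collagen dominates, held 3.71%, 4.036% and 4.378% in the PBS libraries and 2.043%, 2.717% and 1.298% in the ethanol libraries. The same list held 2.406% to 3.034% in the wild-type PBS libraries, so that the knockout PBS libraries were above these and the knockout ethanol libraries ran across and below them. Bulk RNA cannot tell fewer osteoblasts from less RNA per osteoblast. The chondrocyte list was also lower, with 0.02727%, 0.0345% and 0.02861% of counts with PBS and 0.01438%, 0.02304% and 0.009038% with ethanol. In it, 7 of 8 tested members were lower, 2 with no overlap (16.0% of all tested genes), the median was -0.57 and none was called. The periosteal and fibroblast list overlapped between groups, at 0.1491% to 0.1679% with PBS and 0.1708%, 0.1489% and 0.08641% in ethanol libraries 4, 5 and 6. Erythroid genes held 1.956% to 2.263% of counts with PBS and 2.059% to 2.307% with ethanol, and the muscle list overlapped between the groups as given above. The early neutrophil list went from 0.264% to 0.2773% up to 0.2896% to 0.3925%, and the macrophage list from 0.2115% to 0.218% up to 0.2294% to 0.2699%, with no member of either called. The part of these cell types in the bone results was not tested. The count of 3 osteoblast genes went to 0 in refits without any 1 of PBS libraries 1, 2 or 3 or ethanol libraries 4 or 6, and to 4 without ethanol library 5, while the median of the list stayed below 0 in all of them.

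**Figure D2:**
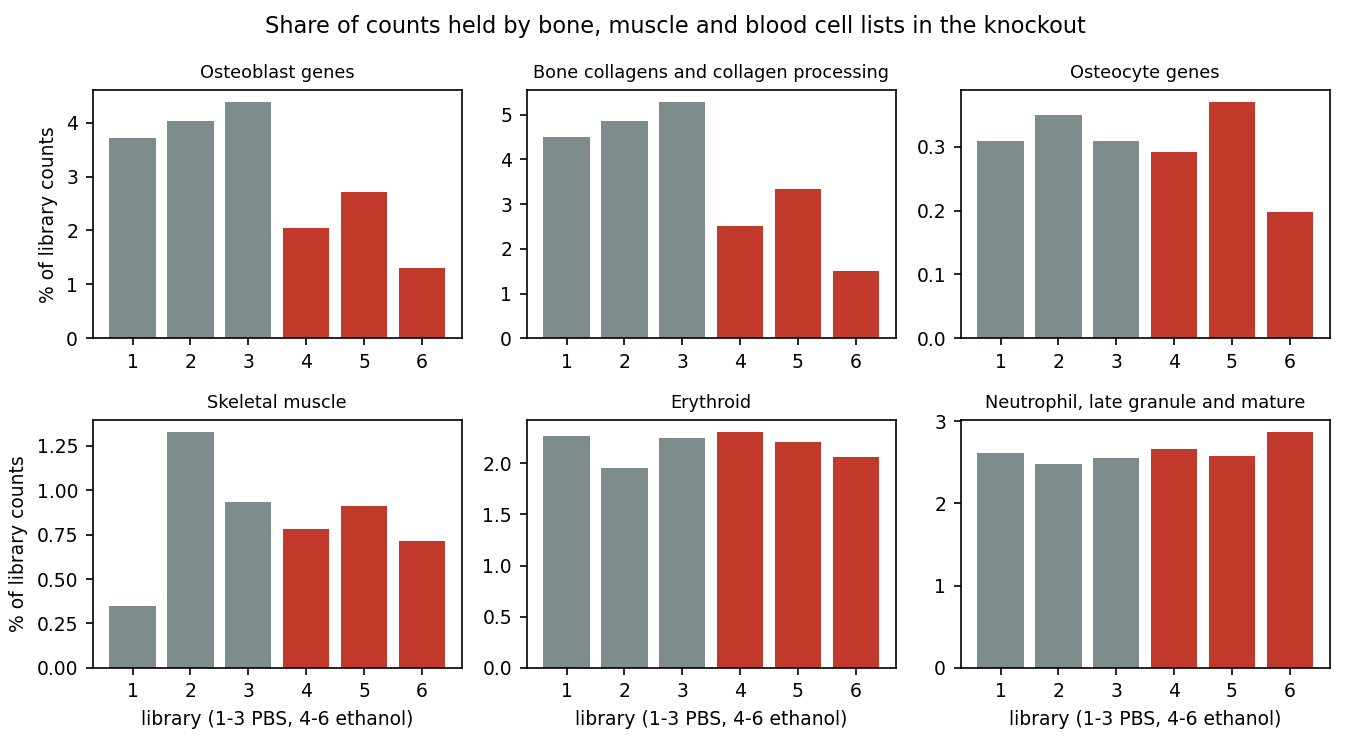
Bars give the percent of each knockout library's counts held by 6 gene lists, with PBS libraries 1 to 3 in grey and ethanol libraries 4 to 6 in red. The osteoblast and collagen lists were lower in every ethanol library and lowest in library 6 (1.298% and 1.516%), while the muscle and erythroid lists overlapped between groups.

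Collagens and the enzymes that process them went the same way. Of 30 members, 29 were lower and 24 of these did not overlap between groups (16.0% of all tested genes), and the median was -0.69. Among the 30, 3 fell, where 0.903% of all tested genes fell. The 3 that fell were Col13a1, a transmembrane collagen, P4ha1, a subunit of the prolyl 4-hydroxylase that stabilises the collagen helix, and Crtap, part of the collagen prolyl 3-hydroxylation complex. Col13a1 was at 38.4, 41.1 and 40.9 CPM with PBS and 17.3, 18.2 and 11.1 CPM with ethanol, a log2 fold change of -1.37 (SE 0.18, adjusted p = 0.00564), and it was called in all 6 refits without a knockout library. P4ha1 changed by -0.63 (SE 0.14, adjusted p = 0.0435) and Crtap by -0.48 (SE 0.10, adjusted p = 0.0344), and each was called in 1 of these 6 refits. The count of 3 was 5 without ethanol library 5 and 1 without any 1 of the other 5 knockout libraries. Col3a1, a collagen of soft connective tissue, stood at 353 ± 43.02 CPM and 351 ± 201 CPM (mean ± SD, n = 3).

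Osteocyte genes gave no call. Of 13 members 12 were lower, 4 with no overlap, and the median was -0.37. Of all tested genes, 16.0% were lower with no overlap. The osteocyte secreted protein Sost, an inhibitor of Wnt signalling, had a log2 fold change of -0.02 (SE 0.29, adjusted p = 0.993) and the matrix protein Dmp1 one of -0.14 (SE 0.18, adjusted p = 0.795). The smallest p values were those of Ptprz1, a receptor phosphatase (log2 fold change -0.76, SE 0.18, adjusted p = 0.0602), and Phex, an endopeptidase that takes part in phosphate control (log2 fold change -0.66, SE 0.19, adjusted p = 0.114). Chondrocyte genes were lower in 7 of 8 members with a median of -0.57 and no call.

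The naming rule also took Fat3, Panx3 and Slc6a2 among the largest falls. Fat3, a giant atypical cadherin (chr9:15910189-16501285), went from 39.9, 49.97 and 50.8 CPM to 12.3, 13.9 and 7.96 CPM, a log2 fold change of -2.04 (SE 0.20, adjusted p = 0.00304). The highest ethanol library lay far below the lowest PBS library. Panx3, which forms channels in osteoblasts and chondrocytes (chr9:37659902-37669235), went from 6.51, 6.70 and 6.32 CPM to 1.90, 1.64 and 1.31 CPM, with a log2 fold change of -2.01 (SE 0.23, adjusted p = 0.00362). It was the 1 called member of 8 tested pannexins and connexins, where 1.87% of all tested genes were called. Slc6a2, the noradrenaline transporter (chr8:92960079-93001667), went from 5.06, 3.99 and 4.59 CPM to 0.690, 1.09 and 0.365 CPM, a log2 fold change of -2.67 (SE 0.35, adjusted p = 0.00564) and the largest fall the naming rule took. Markers of nerve and Schwann cells gave no call among 10 members, and their list held 0.02249% to 0.02355% of counts with PBS and 0.02534% to 0.02666% with ethanol.

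Adamts18, a secreted metalloproteinase, went from 4.95, 7.67 and 6.45 CPM to 1.66, 1.85 and 1.02 CPM (log2 fold change -2.08, SE 0.28, adjusted p = 0.00564). Cemip, which takes part in breakdown of hyaluronan, went from 13.7, 14.7 and 15.2 CPM to 4.49, 4.83 and 2.34 CPM (log2 fold change -1.90, SE 0.26, adjusted p = 0.00723). Rspo2, a secreted protein that amplifies Wnt signals, went from 9.95, 7.67 and 7.81 CPM to 2.28, 2.69 and 2.15 CPM (log2 fold change -1.84, SE 0.29, adjusted p = 0.0113). Rspo2 was the 1 called gene of 26 tested Wnt genes, whose median was -0.14, where 1.87% of all tested genes were called. Bcan, the hyaluronan-binding proteoglycan brevican (log2 fold change -2.20, SE 0.39, adjusted p = 0.0190), and Hapln4, a link protein of hyaluronan and proteoglycans (log2 fold change -2.28, SE 0.51, adjusted p = 0.0494), also fell, both from levels near 2 to 3 CPM. Fat3, Panx3, Slc6a2, Adamts18 and Cemip were called in all 6 refits without a knockout library, Rspo2 in 4, Bcan in 2 and Hapln4 in 1. The other genes among the 15 largest falls that can be named were Mettl21b, a lysine methyltransferase (log2 fold change -2.43, SE 0.29, adjusted p = 0.00376), Xcl1, a chemokine of T and NK cells (log2 fold change -1.90, SE 0.38, adjusted p = 0.0302), Gng4, a G protein subunit (log2 fold change -1.69, SE 0.31, adjusted p = 0.0217), Fam131b (log2 fold change -1.69, SE 0.26, adjusted p = 0.0113), Slc9a2, a sodium-proton exchanger (log2 fold change -1.61, SE 0.23, adjusted p = 0.00808), and Fam167a (log2 fold change -1.57, SE 0.28, adjusted p = 0.0200). Mettl21b, Xcl1 and Fam131b share exon sequence with a gene on the opposite strand, and the sources used here do not say whether reads were counted by strand.

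Matrix proteases went both ways. Among 20 tested members 9 were higher and 11 lower, with a median of -0.06. Mmp13, the collagenase of osteoblasts and hypertrophic chondrocytes, rose from 261, 302 and 309 CPM to 559, 382 and 572 CPM (log2 fold change 0.80, SE 0.17, adjusted p = 0.0430), while Adamts18 and the membrane metalloproteinase Mmp16 (log2 fold change -1.38, SE 0.24, adjusted p = 0.0179) fell. Mmp13 and Mmp16 were each called in 1 of the 6 refits without a knockout library. In edgeR's fit of the knockout libraries alone Mmp13 did not pass (adjusted p = 0.0678).

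**Figure D3:**
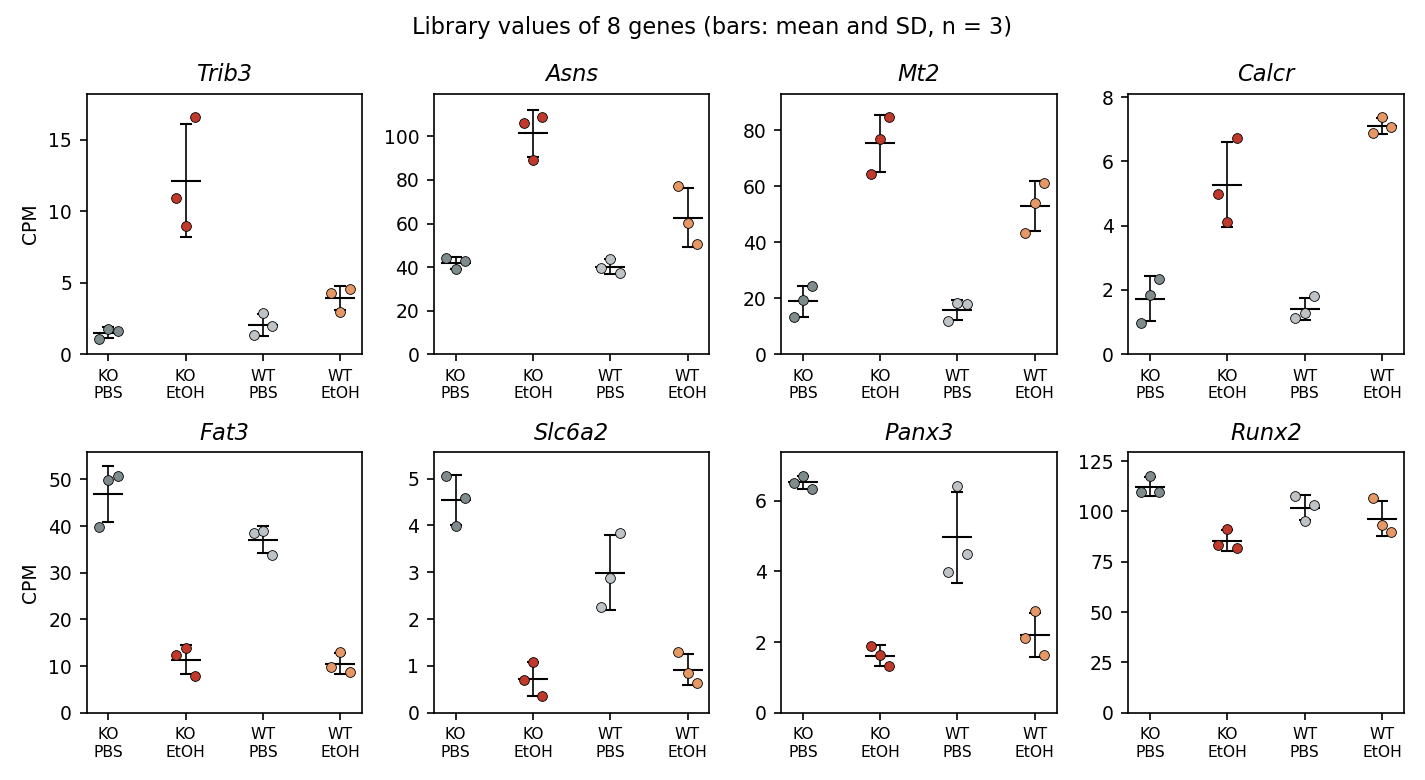
CPM of 8 genes in every library of the 4 groups, each on its own linear axis from 0, with points for libraries and bars for the mean and SD (n = 3). In all 8 genes the knockout ethanol and PBS libraries did not overlap, which the naming rule required. Trib3 stood at 8.95 to 16.6 CPM in the knockout ethanol libraries and at 2.96 to 4.53 CPM in the wild-type ethanol libraries.

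Targets of the glucocorticoid receptor were higher after ethanol, and 7 of 22 tested members rose, where 0.964% of all tested genes rose. In all 21 of the 22 were higher, with a median log2 fold change of 0.67, and 15 had every ethanol library above every PBS library (16.3% of all tested genes did). The largest rise was that of Fam107a, an actin-binding protein known to be induced by stress and glucocorticoid, from 1.121, 1.56 and 1.03 CPM to 4.35, 6.51 and 6.50 CPM, a log2 fold change of 2.21 (SE 0.47, adjusted p = 0.0430). Fkbp5, a co-chaperone that reduces the receptor's affinity for hormone, went from 68.9, 81.1 and 79.4 CPM to 171, 202 and 259 CPM (log2 fold change 1.46, SE 0.30, adjusted p = 0.0433), with library 6 the highest. Map3k6, a stress-activated kinase, went from 14.5, 17.2 and 16.9 CPM to 27.6, 36.1 and 44.1 CPM (log2 fold change 1.15, SE 0.20, adjusted p = 0.0216), and Errfi1, an inhibitor of the EGF receptor, from 39.9, 44.2 and 40.9 CPM to 64.4, 60.3 and 85.6 CPM (log2 fold change 0.75, SE 0.11, adjusted p = 0.00942). The receptor gene Nr3c1 itself had a log2 fold change of -0.11 (SE 0.05, adjusted p = 0.366). The known targets Tsc22d3 (log2 fold change 0.79, SE 0.31, adjusted p = 0.247), Zbtb16 (log2 fold change 1.52, SE 0.52, adjusted p = 0.180) and Per1 (log2 fold change 0.42, SE 0.30, adjusted p = 0.572) did not pass the test. The count of 7 ranged from 2 (without PBS library 1 or 3) to 5 (without ethanol library 4) when 1 knockout library was left out.

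The 2 main metallothioneins, small proteins that bind zinc and copper and are induced by metals and by glucocorticoid, were part of this list and of the list of zinc handling. Mt1 went from 40.3, 55.5 and 56.7 CPM to 103, 117 and 117 CPM, a log2 fold change of 1.15 (SE 0.13, adjusted p = 0.00362). Mt2 (chr8:94172664-94173568) went from 13.2, 19.5 and 24.3 CPM to 64.4, 76.97 and 84.7 CPM, a log2 fold change of 1.99 (SE 0.24, adjusted p = 0.00576), which is 3.97-fold. Both were called in all 6 refits without a knockout library, although Mt2 shares exon sequence with a predicted gene on the opposite strand. The other zinc genes did not rise with them. Slc39a10, a zinc importer, fell (log2 fold change -0.42, SE 0.06, adjusted p = 0.00894), the metal-sensing factor Mtf1 had a log2 fold change of 0.08 (SE 0.07, adjusted p = 0.640) and the zinc exporter Slc30a1 one of 0.09 (SE 0.07, adjusted p = 0.549), neither passing the test.

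The 250 bases before each gene start in RefSeq (GRCm38.p6) were searched on both strands for letters known from binding sites, since members of a list moved together. The glucocorticoid element, a palindrome of GNACA and TGTNC with 3 bases of any kind between them, stood in 0.387% of all 32851 windows, in 0.288% of the 15623 windows of tested genes, in 3.145% of the 159 windows of genes that rose and in 0 of the 164 windows of genes that fell. Of the 159 windows 5 held it, those of Mt1, Map3k6, Fam107a and Txnip. Fam107a has overlapping windows with the same match, so this site was counted more than once. Of these 4 genes, 3 are among the 7 that rose in the glucocorticoid list. The windows of these 3 genes, left to the bases outside every GENCODE exon on their strand, are shown with the match in capitals, the first letter of which lies 94, 181 and 118 bases before the start of the gene (for Fam107a, of the start with the match nearest to it). They cover chr8:94178839-94179081 for Mt1 and chr4:133240568-133240817 for Map3k6, on the plus strand, and chr14:8309796-8310029 for Fam107a, on the minus strand.
Mt1: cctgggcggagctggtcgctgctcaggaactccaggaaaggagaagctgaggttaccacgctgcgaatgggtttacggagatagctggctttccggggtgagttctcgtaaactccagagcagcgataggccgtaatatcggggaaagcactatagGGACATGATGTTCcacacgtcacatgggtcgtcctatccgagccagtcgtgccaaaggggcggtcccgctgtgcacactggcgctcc
Map3k6: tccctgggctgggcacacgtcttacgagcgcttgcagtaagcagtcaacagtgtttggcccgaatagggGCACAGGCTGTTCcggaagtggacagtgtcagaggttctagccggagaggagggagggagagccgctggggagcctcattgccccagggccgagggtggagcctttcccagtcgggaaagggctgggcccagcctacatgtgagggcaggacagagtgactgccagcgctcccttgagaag
Fam107a: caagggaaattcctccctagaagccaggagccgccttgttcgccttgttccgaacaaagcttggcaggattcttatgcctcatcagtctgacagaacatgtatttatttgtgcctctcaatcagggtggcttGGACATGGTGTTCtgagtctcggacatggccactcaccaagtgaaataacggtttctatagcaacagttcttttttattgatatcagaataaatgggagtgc
The letters were not in the windows of Mt2, Errfi1, Glul or Fkbp5, the other 4 genes that rose in the list. A match describes these letters only. In all 8 motifs were searched, and this one is shown after the result was seen. The others were TGATGNAA (3.452% of all windows), TGACGTCA (1.546%), GAANNTTC (6.694%), TCACNCCAC (1.053%), TGCNCNC (44.413%), CACGTG (6.021%) and TTANGTAA (2.061%). In this order, they stood in 2.125%, 2.336%, 5.069%, 1.056%, 51.693%, 7.745% and 1.447% of the windows of tested genes. They stood in 3.774%, 2.516%, 5.031%, 0.0%, 55.975%, 6.918% and 1.258% of the windows of genes that rose. For genes that fell these were 3.049%, 2.439%, 3.049%, 1.829%, 54.268%, 7.317% and 1.22%.

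Of 17 tested stress regulators of the ATF4 response 3 rose, Trib3 by far the most, where 0.964% of all tested genes rose. In all, 13 were higher, 11 with no overlap, and the median was 0.35. Of all tested genes, 16.3% were higher with no overlap. Trib3, a pseudokinase that the ATF4 and CHOP factors induce (chr2:152337422-152344032), went from 1.05, 1.77 and 1.65 CPM to 10.9, 8.95 and 16.6 CPM, a log2 fold change of 3.02 (SE 0.33, adjusted p = 0.00358), which is 8.13-fold. The lowest ethanol library was above 5 times the highest PBS library. Sesn2, a sestrin that senses leucine and restrains mTORC1, went from 18.01, 18.8 and 18.6 CPM to 27.2, 26.9 and 35.1 CPM (log2 fold change 0.69, SE 0.12, adjusted p = 0.0201), and Ddit3, which encodes CHOP, from 27.8, 24.8 and 27.8 CPM to 35.1, 35.9 and 43.2 CPM (log2 fold change 0.51, SE 0.10, adjusted p = 0.0327). Ddit3 shares exon sequence with Mars on the opposite strand. Atf4 itself was at 192 ± 8.64 CPM and 213 ± 8.53 CPM (mean ± SD, n = 3) with a log2 fold change of 0.15 (SE 0.07, adjusted p = 0.280), which did not pass the test. Trib3 was called in all 6 refits without a knockout library, so the count of 3 went to 2 or 1 but never to 0.

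Some genes of amino acid synthesis and import rose as well, where 0.964% of all tested genes rose and 0.903% fell. Asns, asparagine synthetase (chr6:7675169-7693254), went from 43.98, 38.9 and 43.02 CPM to 106, 89.2 and 109 CPM, a log2 fold change of 1.27 (SE 0.14, adjusted p = 0.00358). The mitochondrial one-carbon enzymes Mthfd2 (42.4, 40.00 and 40.3 CPM to 74.4, 63.02 and 82.1 CPM; log2 fold change 0.84, SE 0.12, adjusted p = 0.00751) and Shmt2 (57.1, 59.8 and 61.4 CPM to 95.8, 76.2 and 87.6 CPM; log2 fold change 0.54, SE 0.09, adjusted p = 0.0142) rose. In the same list of 16 genes, Pycr1, which makes proline (log2 fold change -0.96, SE 0.15, adjusted p = 0.0126), and Aldh1l2, a mitochondrial folate enzyme (log2 fold change -1.45, SE 0.30, adjusted p = 0.0369), fell, and the serine synthesis genes Phgdh (log2 fold change 0.06, SE 0.08, adjusted p = 0.817) and Psat1 (log2 fold change 0.04, SE 0.09, adjusted p = 0.901) did not pass the test. Of 18 amino acid transporters 12 were higher, with a median of 0.12, and 3 rose (0.964% of all tested genes did). These were Slc7a5 and Slc3a2, the light and heavy chains of the exchanger that imports leucine, and Slc43a2, another carrier of large neutral amino acids. Slc7a5 went from 80.1, 76.1 and 78.8 CPM to 148, 132 and 162 CPM (log2 fold change 0.91, SE 0.12, adjusted p = 0.00539), Slc3a2 changed by 0.51 (SE 0.07, adjusted p = 0.00808) and Slc43a2 by 0.53 (SE 0.06, adjusted p = 0.00362). The cystine carrier Slc7a11, also known as an ATF4 target, was at 6.18, 5.70 and 4.17 CPM against 3.31, 3.03 and 3.80 CPM, a log2 fold change of -0.66 (SE 0.22, adjusted p = 0.151). Asns, Slc7a5 and Slc43a2 were called in all 6 refits without a knockout library, Mthfd2 and Slc3a2 in 5, and Shmt2 and Pycr1 in 2.

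The enzymes that charge tRNA had a median of 0.04 over 20 members, of which 12 were higher. Of all tested genes, 0.964% rose. Cars, for cysteine (log2 fold change 0.50, SE 0.09, adjusted p = 0.0209), and Sars, for serine (log2 fold change 0.45, SE 0.09, adjusted p = 0.0240), were among 3 that rose, and Aars, for alanine, had a log2 fold change of 0.42 (SE 0.10, adjusted p = 0.0618). The count was 3 without ethanol library 5 and 0 without any 1 of the other 5 knockout libraries. Chaperones of the endoplasmic reticulum, which the other arms of the unfolded protein response raise, gave no call among 18 genes, and 13 were lower with a median of -0.06. The composite letters TGATGNAA of C/EBP and ATF factors stood in 1 of the 10 windows of the 9 genes of these lists that rose and had a window, that of Asns, at 23 bases before the RefSeq start. GENCODE has an exon of Asns at these letters, so only the 30 bases around them are printed (chr6:7693214-7693243, minus strand). They are shown, with the letters in capitals, because the amino acid response element of Asns is the textbook example of such a site.
Asns: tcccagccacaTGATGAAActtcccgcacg

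**Figure D4:**
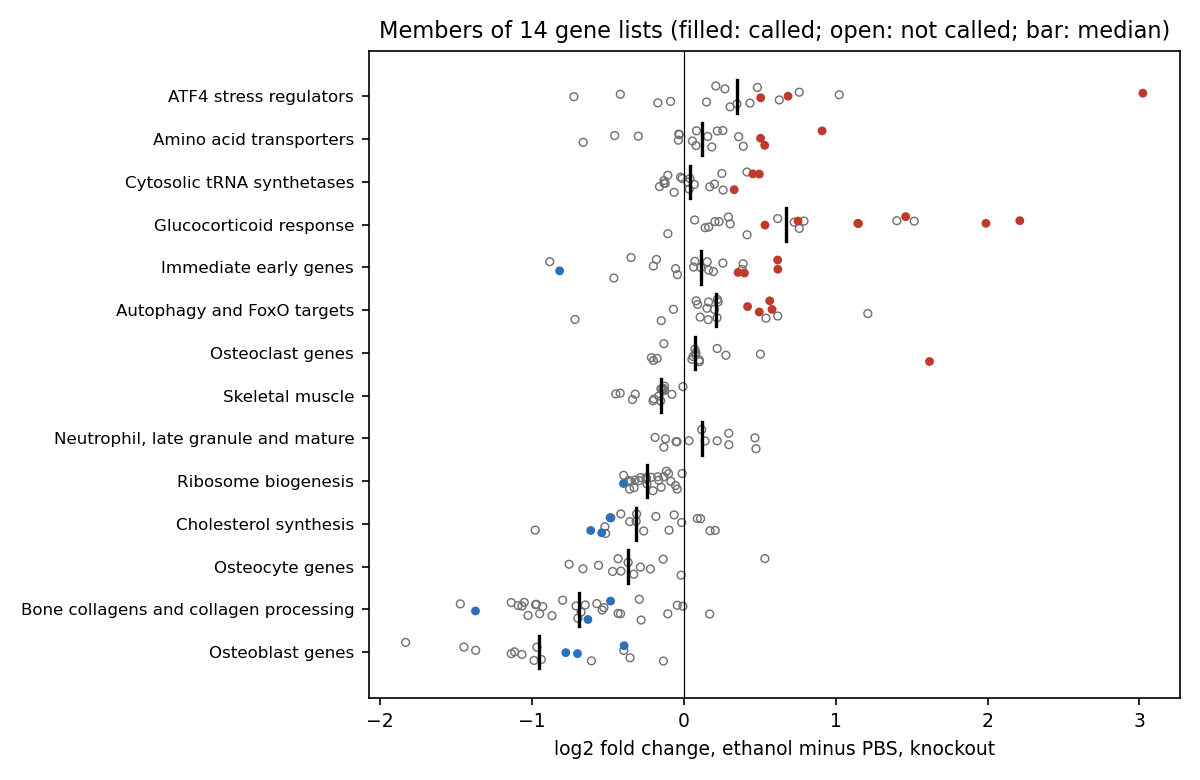
Each point is a tested member of 1 of 14 gene lists at its log2 fold change (ethanol minus PBS, knockout), filled where it was called and open where not; black bars are medians. The glucocorticoid list has its median at 0.67 and the osteoblast list at -0.95, while the muscle list, with none called, has its median at -0.15.

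The test of a different ethanol effect in the 2 genotypes called no gene. The interaction gave 0 calls by edgeR (0.00%), with 359 genes (1.98%) at an unadjusted p under 0.05, 0 calls by limma-voom and 1 by DESeq2, an immunoglobulin segment. An even spread of p values would put 908.1 genes under 0.05, so the 0 calls do not show that the 2 effects were equal. Without the 3 wild-type libraries highest in muscle genes, 1087 genes had an unadjusted interaction p under 0.05 by edgeR. The wild-type effect had 229 calls (1.26%), of which 117 were among the 339 of the knockout, all in the same direction; these are 34.51% of the knockout calls and 51.09% of the wild-type calls. The 2 effects share no library, but they come from the same fit and share each gene's estimate of the spread. A gene with a low estimate was therefore more readily called in both. Of the 339 genes, 335 had the same sign in the wild type (73.39% of all tested genes did), and the exceptions were Ddit3, Pfkl, Ceacam19 and a predicted gene, Ceacam19 being named after its values were seen. The median size of the log2 fold change of the 339 genes was 0.66 in the knockout and 0.47 in the wild type. Because the 339 were chosen for their change in the knockout, this order was in part fixed by the choice: the 229 genes called in the wild type had a median size of 0.57 there and 0.42 in the knockout.

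**Figure D5:**
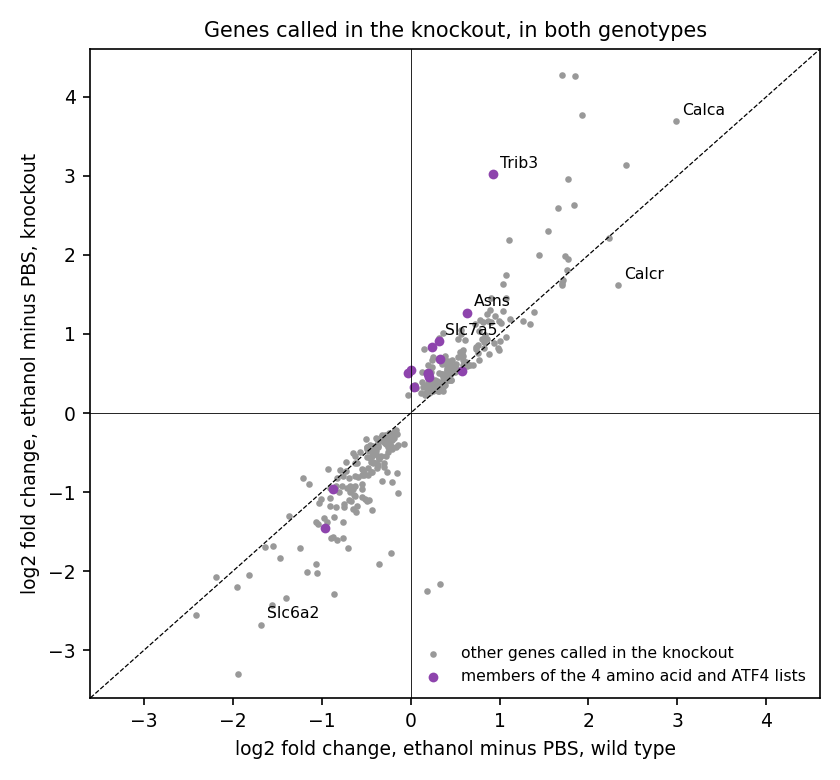
Each point is 1 of the 339 genes called in the knockout, with its log2 fold change (ethanol minus PBS) in the wild type on the horizontal axis and in the knockout on the vertical axis; the dashed line marks equal change. Members of the 4 lists of ATF4 and amino acid genes are purple, and Trib3 lies at 3.02 in the knockout against 0.93 in the wild type.

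The 6 genes with the smallest interaction p among those called in the knockout were Trib3, Shmt2, Ddit3, Slc7a5, Mthfd2 and Pfkl. Since they were chosen from the genes called in the knockout, a larger change there was in part fixed by the choice, as for all 40 called genes with an unadjusted interaction p under 0.05, each of which changed more in the knockout. Trib3 had a log2 fold change of 0.93 (SE 0.32) in the wild type, from 1.33, 2.88 and 1.99 CPM to 4.29, 2.96 and 4.53 CPM, and the difference between genotypes was 2.09 (SE 0.45, unadjusted p = 7.05e-04). For Shmt2 the wild-type value was 0.01 (SE 0.09) and the difference 0.53 (SE 0.13, unadjusted p = 0.00117). For Ddit3 they were -0.03 (SE 0.10) and 0.54 (SE 0.15, unadjusted p = 0.00332), and for Slc7a5 0.32 (SE 0.12) and 0.59 (SE 0.16, unadjusted p = 0.00342). For Mthfd2 they were 0.25 (SE 0.12) and 0.59 (SE 0.17, unadjusted p = 0.00451). Pfkl, the liver-type phosphofructokinase of glycolysis, rose slightly in the knockout (log2 fold change 0.22, SE 0.05, adjusted p = 0.0430) and had a difference of 0.25 (SE 0.07, unadjusted p = 0.00336). None of these differences passed adjustment over the 18161 genes, where the smallest adjusted p was 1. Slc43a2, of the same transporter list, changed by 0.58 in the wild type and 0.53 in the knockout. For Runx2 the wild-type value was -0.08 (SE 0.08) and the difference -0.31 (SE 0.11, unadjusted p = 0.0139). For Fat3 the wild-type value was -1.81, for Mt2 1.73 and for Adamts18 -2.19, beside -2.04, 1.99 and -2.08 in the knockout.

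Calca and Calcr rose, and no other osteoclast gene than Calcr was called, where 1.87% of all tested genes were called. Calca, which encodes both calcitonin and the peptide CGRP, products that a count per gene does not separate, rose from 0.145, 0.174 and 0.124 CPM to 1.52, 2.52 and 1.93 CPM, a log2 fold change of 3.69 (SE 0.55, adjusted p = 0.00942), from a handful of counts per PBS library. Calcr, the calcitonin receptor that marks mature osteoclasts (chr6:3685680-3764714), rose from 0.977, 1.84 and 2.36 CPM to 4.97, 4.12 and 6.72 CPM, a log2 fold change of 1.62 (SE 0.29, adjusted p = 0.0200). The other 14 osteoclast genes did not pass the test, and the median of the list was 0.08, with 11 of 15 members higher. Acp5, tartrate-resistant acid phosphatase, had a log2 fold change of 0.08 (SE 0.17, adjusted p = 0.901), and Ctsk, cathepsin K, one of 0.05 (SE 0.18, adjusted p = 0.944). Tnfsf11, which encodes the osteoclast-inducing cytokine RANKL, was at 4.70, 3.85 and 5.25 CPM and 8.56, 6.72 and 6.61 CPM (log2 fold change 0.67, SE 0.17, adjusted p = 0.0651), with no overlap. Calca and Calcr were each called in 3 of the 6 refits without a knockout library.

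Genes of cholesterol synthesis were lower. Of 20 members 16 were lower, 12 with no overlap (16.0% of all tested genes), with a median of -0.31. Of the 20, 3 fell, where 0.903% of all tested genes fell. These were Hmgcs1, which makes the HMG-CoA of the pathway (44.2, 41.1 and 44.1 CPM to 30.5, 30.6 and 31.1 CPM; log2 fold change -0.49, SE 0.09, adjusted p = 0.0226), Cyp51, a lanosterol demethylase (log2 fold change -0.61, SE 0.11, adjusted p = 0.0226), and Insig1, the sterol-sensing retention protein (log2 fold change -0.54, SE 0.10, adjusted p = 0.0234). The sterol letters TCACNCCAC stood in the window of Hmgcs1, 137 bases before its start, and not in those of Cyp51 and Insig1. The count of 3 was 1 without ethanol library 4 or 5 and 0 without any 1 of the others. The wild-type median of this list was -0.45.

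Fat metabolism went both ways. Of 23 PPAR targets and genes of fatty acid oxidation 16 were higher, with a median of 0.15. Of all tested genes, 0.964% rose and 0.903% fell. Plin2, which coats lipid droplets (61.99, 58.7 and 63.03 CPM to 82.96, 91.4 and 98.6 CPM; log2 fold change 0.57, SE 0.12, adjusted p = 0.0369), and Acot1, an acyl-CoA thioesterase (log2 fold change 1.28, SE 0.25, adjusted p = 0.0261), were among 3 that rose. Acot1 has a near-identical neighbour, Acot2 (log2 fold change 0.02, SE 0.20, adjusted p = 0.984), and reads may be split between them. Pparg, the regulator of fat cells, fell from 26.4, 22.7 and 28.02 CPM to 14.9, 14.7 and 14.2 CPM (log2 fold change -0.81, SE 0.15, adjusted p = 0.0226).

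Genes of ribosome assembly were all slightly lower: 25 of 25, of which 18 did not overlap (16.0% of all tested genes), with a median of -0.24. Dkc1, the pseudouridine synthase of ribosomal RNA, was the 1 that fell (log2 fold change -0.40, SE 0.09, adjusted p = 0.0460), where 0.903% of all tested genes fell. When only the knockout libraries were fitted, 15 of the 25 fell (4.58% of all genes tested in that fit), and in refits without 1 knockout library none did. Nuclear genes of oxidative phosphorylation had a median of -0.05 with 23 of 27 lower and none called. Genes of the cell cycle had a median of 0.05 with none called.

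Of the enzymes that handle ethanol and peroxide, 2 peroxide genes were called in the knockout, where 1.87% of all tested genes were called. None of 15 genes for ethanol, acetaldehyde and acetate was called, in the fit of all libraries or of the knockout alone, and the median was 0.10. Aldh2, the mitochondrial acetaldehyde dehydrogenase, was at 562 ± 20.6 CPM and 601 ± 27.3 CPM (mean ± SD, n = 3; log2 fold change 0.10, SE 0.11, adjusted p = 0.764). Cyp2e1 was at 0.217, 0.868 and 0.331 CPM and 1.76, 0.882 and 2.85 CPM (log2 fold change 1.93, SE 1.46, adjusted p = 0.597), with the ethanol libraries higher by a narrow gap and uneven. Of 20 genes of peroxide metabolism, Prdx1, a peroxiredoxin, fell from 186, 189 and 194 CPM to 159.6, 160.3 and 159 CPM (log2 fold change -0.25, SE 0.05, adjusted p = 0.0430), and Txnip, an inhibitor of thioredoxin, rose from 377, 404 and 399.6 CPM to 505, 646 and 614 CPM (log2 fold change 0.58, SE 0.12, adjusted p = 0.0399). Both groups of Prdx1 values were narrow, and Txnip shares exon sequence with a predicted gene on the opposite strand. Glutathione peroxidase Gpx1 (log2 fold change -0.04, SE 0.09, adjusted p = 0.917) and superoxide dismutase Sod1 (log2 fold change 0.02, SE 0.07, adjusted p = 0.949) did not pass the test. None of 19 genes of the NRF2 response to oxidants was called, and their median was 0.06. Hmox1, heme oxygenase, was lower in all ethanol libraries (285, 286 and 302 CPM to 168, 177 and 189 CPM; log2 fold change -0.71, SE 0.22, adjusted p = 0.132), and it passed when the knockout libraries were fitted alone (adjusted p = 6.42e-04).

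Genes of autophagy and of the FoxO factors were higher in 17 of 20 members, with a median of 0.21. Of the 20, 4 rose, where 0.964% of all tested genes rose. The 4 that rose were Irs2, an adaptor of the insulin receptor (log2 fold change 0.42, SE 0.08, adjusted p = 0.0217), Gabarapl1, a protein of autophagosomes (log2 fold change 0.50, SE 0.10, adjusted p = 0.0300), Pik3ip1, an inhibitor of PI3 kinase (log2 fold change 0.57, SE 0.12, adjusted p = 0.0435), and Txnip. The count was 3 without ethanol library 4, 1 without ethanol library 5 or 6, and 0 without any 1 PBS library. Of the immediate early genes, Fos (8.25, 9.27 and 10.04 CPM to 13.1, 15.6 and 13.5 CPM; log2 fold change 0.62, SE 0.12, adjusted p = 0.0226), Junb (log2 fold change 0.36, SE 0.06, adjusted p = 0.0190) and Ier2 (log2 fold change 0.40, SE 0.07, adjusted p = 0.0165) were among 4 of 21 that rose, and Nr4a2 fell (log2 fold change -0.82, SE 0.18, adjusted p = 0.0399). Of all tested genes, 0.964% rose and 0.903% fell. Junb shares exon sequence with Prdx2 on the opposite strand.

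Of the 20 genes of the NF-kB and Toll-like receptor list 4 rose and none fell, where 0.964% of all tested genes rose, and the median of the list was 0.01. Il1r2, a decoy receptor that binds interleukin 1, rose from 16.2, 17.8 and 17.2 CPM to 39.8, 54.1 and 77.03 CPM (log2 fold change 1.74, SE 0.30, adjusted p = 0.0243). Socs3, which dampens cytokine receptors (log2 fold change 0.71, SE 0.14, adjusted p = 0.0258), and Birc3, an NF-kB target that restrains cell death (log2 fold change 0.52, SE 0.10, adjusted p = 0.0248), also rose. The count of 4 was 1 without any 1 of PBS libraries 1, 2 or 3 or ethanol library 6, 2 without ethanol library 5 and 3 without ethanol library 4. Cxcl9, a chemokine induced by interferon, fell (log2 fold change -0.98, SE 0.19, adjusted p = 0.0260), and none of 16 interferon response genes was called. Gzma, a granzyme of T and NK cells, rose (log2 fold change 0.82, SE 0.18, adjusted p = 0.0404) as the 1 called member of 15 genes of these cells.

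Secreted signals and retinoid genes were also among those that rose, where 0.964% of all tested genes rose. Ctgf, a matrix-cell signal and target of YAP, went from 55.99, 75.1 and 66.4 CPM to 142, 162 and 165 CPM (log2 fold change 1.25, SE 0.17, adjusted p = 0.00723), the only call of 12 genes in its list, whose median was -0.10. Igfbp3, which binds insulin-like growth factors (log2 fold change 0.63, SE 0.13, adjusted p = 0.0343), and Inhbb, a subunit of activin B (log2 fold change 0.96, SE 0.17, adjusted p = 0.0201), rose. The retinoic acid hydroxylase Cyp26b1 (9.69, 7.43 and 6.78 CPM to 26.6, 30.8 and 19.7 CPM; log2 fold change 1.69, SE 0.27, adjusted p = 0.0160) and the retinal reductase Dhrs3 (55.7, 52.6 and 57.1 CPM to 86.8, 76.9 and 88.2 CPM; log2 fold change 0.61, SE 0.07, adjusted p = 0.00362), both known to lower retinoic acid, rose as 2 of 14 retinoid genes. Dhrs3 and Ctgf were called in all 6 refits without a knockout library, Cyp26b1 in 4, and Igfbp3 and Inhbb in 2. In edgeR's fit of the knockout libraries alone Igfbp3 did not pass (adjusted p = 0.0781).

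The largest rises outside the lists were in genes of low level. Rasl10b, a small GTPase, went from 0.326, 0.174 and 0.372 CPM to 2.07, 2.14 and 3.47 CPM (log2 fold change 3.14, SE 0.46, adjusted p = 0.00808). Erfe, erythroferrone, the hormone of red cell precursors that lowers hepcidin, went from 2.10, 0.972 and 1.49 CPM to 14.9, 4.08 and 8.62 CPM (log2 fold change 2.60, SE 0.47, adjusted p = 0.0262), with library 5 lowest and library 4 highest among the ethanol libraries. It shares exon sequence with Ilkap on the opposite strand. Kcnt1, a sodium-activated potassium channel (log2 fold change 1.95, SE 0.25, adjusted p = 0.00539), Ms4a8a, a tetraspan membrane protein (log2 fold change 1.99, SE 0.31, adjusted p = 0.0147), and Vipr2, a receptor of vasoactive intestinal peptide (log2 fold change 1.64, SE 0.31, adjusted p = 0.0261), rose as well. Among the erythroid genes, the list that bears on Erfe, none of 14 was called and the median was 0.02. Erfe was called in 1 of the 6 refits without a knockout library, Rasl10b in 5 and Kcnt1 in all 6. In edgeR's fit of the knockout libraries alone Erfe did not pass (adjusted p = 0.071).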

How the data were processed

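Bulk RNA was sequenced from femoral shafts, 12 libraries of 2 pooled mice each, 3 per group. The authors deposited whole-number counts per Ensembl gene, unscaled, per the file headers. Another deposited table gives a normalized signal per gene, per the file headers, of which the gene symbols alone were used. Reads were trimmed, aligned and counted with tools listed in the submitters' processing notes (Trimmomatic 0.36, STAR 2.5.2b, Subread 1.5.2 with featureCounts) against GRCm38. Strand and multi-mapping settings and the annotation release: not given in the sources used here. Shared exon sequence is marked in the results for some genes only. Shmt2, Cyp51, Dkc1, Slc43a2, Ctgf, Pik3ip1, Gabarapl1, Cars, Irs2 and Hmgcs1 also share exon sequence with a gene on the opposite strand. Coordinates come from GENCODE M21 (GRCm38), and promoter windows from RefSeq (GRCm38.p6).

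Genes were kept by filterByExpr (minimum count 10, minimum total 15) and scaled by TMM factors (0.908 to 1.05). An edgeR 4.0.16 quasi-likelihood model in R 4.3.3 was fitted to all 12 libraries, with a coefficient for each group, 8 residual degrees of freedom and a common dispersion of 0.0338. P-values are two-sided and Benjamini-Hochberg adjusted over 18161 genes. Beside a log2 fold change, brackets hold its standard error (SE, its size over the square root of F) and its adjusted p from this test. On simulated counts the test recovered 162 of 200 changed genes (of those changed 4-fold, 43 of 50 higher and 45 of 50 lower) and called 11 unchanged ones. The changes were of 2-fold or 4-fold, in genes of at least 1 CPM, and smaller ones were not simulated. Among the genes called in the data the median size of the log2 fold change was 0.66.

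The naming rule took called genes with a mean of at least 1 CPM and no overlap between knockout groups, other than pseudogenes, predicted genes and antigen receptor segments. These were the 15 largest rises and falls, up to 4 per list with the smallest adjusted p and up to 6 by interaction p. Added were up to 2 members of lists without a call, and Cat. Other list members are given as values and were chosen after these were seen. The members and the 56 lists (902 symbols) were chosen with earlier results of these data known. A few genes within the rule are not reported here by name. The alternatives comprised RLE or upper-quartile factors, no filter, a filter of 5 CPM in at least 3 libraries, limma-voom (limma 3.58.1), DESeq2 1.42.0, the knockout libraries alone, the fit without the 3 wild-type libraries highest in muscle genes, muscle or blood genes as covariate, a test against a log2 fold change of 0.5, and leaving out each library.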

Additional observations from a re-analysis of the deposited data

How the results depend on the processing

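The 339 calls (175 rose, 164 fell) became 986 (451 and 535) with DESeq2, 1677 (863 and 814) with the knockout libraries alone, 1342 (714 and 628) without the 3 wild-type libraries highest in muscle genes, 861 (440 and 421) with the muscle list and 607 (282 and 325) with the blood cell lists as covariate, and 21 (10 and 11) when tested against a log2 fold change of 0.5. They stayed within 1.5 times of the reported count with RLE factors (359), upper-quartile factors (311), no filter (381), the 5 CPM filter (370) and limma-voom (459). Leaving out 1 library in turn gave 52 to 568 calls (23 to 255 rose, 27 to 313 fell). A lone omission leaves an arm with 2 libraries, and the cause of the other shifts was not tested. The interaction had 0 calls except 1 with DESeq2. No named gene changed direction under any of these alternatives where it had been called. Of 81 named called genes, 81 were called with DESeq2, 80 with limma-voom, 75 with the knockout libraries alone and 16 against a log2 fold change of 0.5. No paired analysis was possible because the replicate numbers of the PBS (1 to 3) and ethanol (4 to 6) libraries are not shared. With 3 pools of 2 mice per group, genes whose ethanol libraries were uneven, such as Col1a1, could differ widely in mean without passing the test, and variation from mouse to mouse is hidden by the pools.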
